A study of Mus musculus with 10 samples.

Results

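Oligodendrocytes wrap axons of the central nervous system in myelin, a stack of compacted membrane rich in lipid and in a small set of abundant proteins. They arise from precursor cells that carry the growth factor receptor Pdgfra and the proteoglycan Cspg4, and the transcription factors Olig2, Sox10 and Myrf drive the step to a myelinating cell. In the striatum, myelinated fibre bundles run between the medium spiny neurons, so that unpurified striatal RNA holds both neuronal and myelin transcripts. Some myelin mRNAs, Mbp foremost, are carried into the myelin sheath and translated there.

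The 32 genes described here are mature myelin genes and precursor genes, listed by symbol. All 32 were found among the 32531 gene symbols of each count table. Their levels were followed through a purification of ribosomes from another cell type. The question put to them was which of these genes were least depleted.

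The samples were 10 RNA-seq libraries of mouse whole striatum from the Drd2-TRAP line CP101. In this line an EGFP-tagged ribosomal protein is driven by the regulatory region of the dopamine D2 receptor gene, so that all groups carry the transgene. An antibody to EGFP pulls down tagged ribosomes with their mRNA (the immunopurified fraction, IP). The D2 receptor is made by indirect-pathway medium spiny neurons and also by cholinergic interneurons, and the labels name medium spiny neurons for every library. Mice had self-administered saline or cocaine. The libraries were 3 saline IPs (numbers 1, 2 and 4), 5 cocaine IPs (numbers 1 to 5), 1 saline input and 1 cocaine unbound library. Input is the striatal RNA before purification and unbound is what the beads left behind. The sources used here do not give age, sex or the number of animals behind a library. Since nothing says that replicates came from separate animals, each p-value measures the spread between libraries, which may be technical.

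Reads assigned to genes numbered 22975667 to 31631137 for an IP library, 18408782 for input and 20882691 for unbound. Levels are CPM, gene reads scaled to a common library total and corrected for composition by TMM. The 6 D2 neuron markers were all higher in IP, with a median log2 ratio of 2.59 to input and 2.82 to unbound. The 6 D1 neuron markers had medians of -3.24 and -2.84. Input and unbound were both sequenced in lane 1 and the IP libraries in lanes 4, 6 and 7, so lane and fraction cannot be told apart.

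The 32 genes together took 0.481% of gene reads in input and 0.483% in unbound RNA. In the IP libraries they took 0.0306% to 0.0614%. Mbp and Qdpr supplied 17.0% of those reads in input and 16.6% in unbound RNA, against 36.2% to 60.8% in IP. Without this pair, the share was 0.399% in input, 0.403% in unbound RNA and 0.0121% to 0.0392% in IP. IP, input and unbound are different fractions of striatal RNA, so gaps between them measure neither oligodendrocyte number nor the RNA per cell. Within a fraction, fewer cells of a type and less RNA per cell cannot be told apart in bulk libraries such as these.

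**Figure D1:**
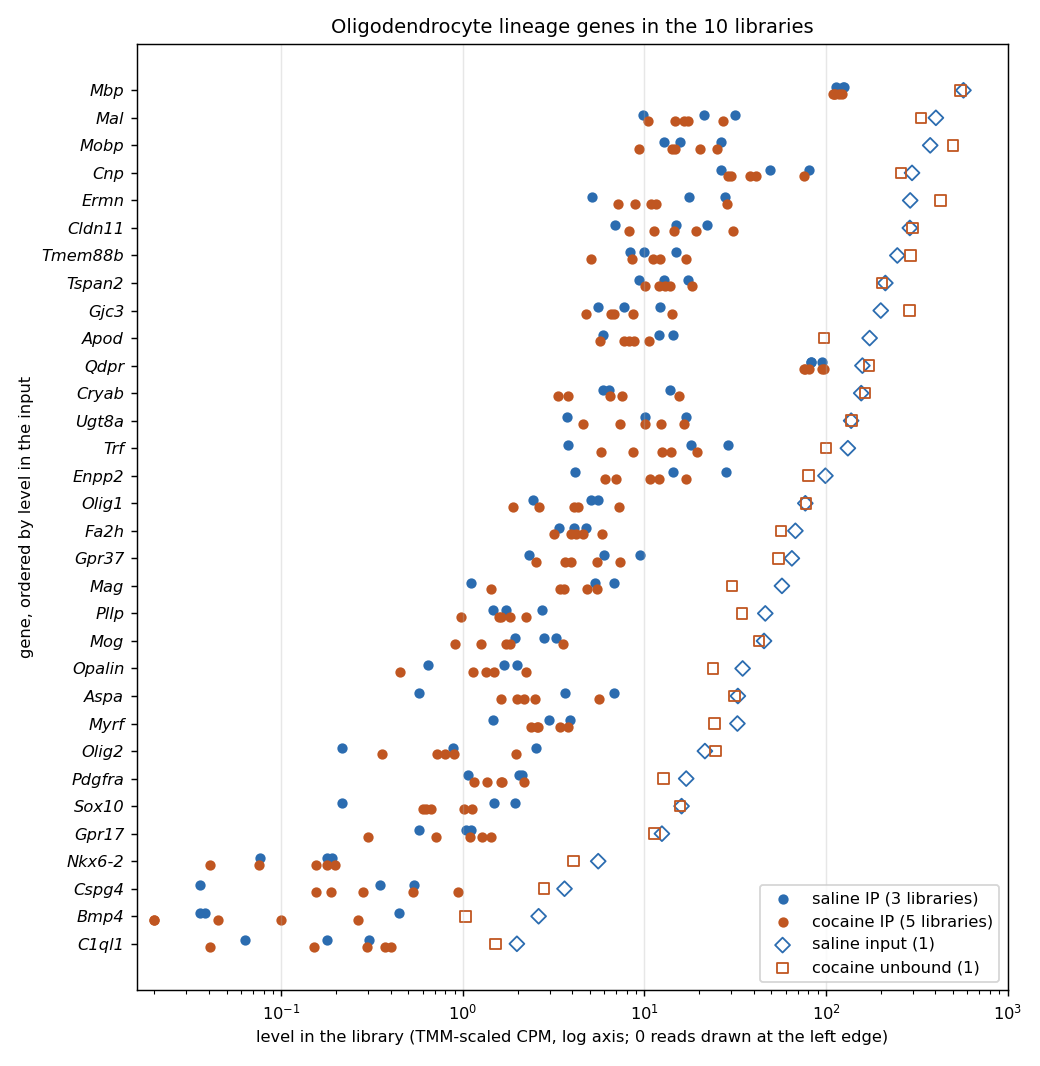
CPM of the 32 genes (rows) in the 8 IP libraries, the saline input and the cocaine unbound library on a log axis. The input and unbound points lie to the right of the IP points for every gene, and the IP points of Mbp and Qdpr, 1.15-fold and 1.29-fold apart at most, are the most tightly grouped of the genes at or above 5 CPM.

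A gene was called lower when every IP library lay more than 2-fold below the single reference library, provided its mean reached 1 CPM. Values under 3 reads were set to 3 reads. Of the 30 listed genes that passed the filter against input, 29 were lower, where 13.5% of 12894 genes were. Qdpr was the exception, and Bmp4 and C1ql1 were not tested. Against unbound, 27 of 28 were lower, where 11.1% of 12655 genes were, with Qdpr again the exception and Cspg4 and Nkx6-2 also untested. None was higher in either comparison, where 2.06% and 4.95% of genes were. Nkx6-2, Cspg4 and Gpr17, with IP means under 1 CPM, passed the filter against input only through the input, and Sox10, Olig2 and Gpr17 passed against unbound only through the unbound library. Such genes could hardly be other than lower. Without them, 26 of 27 were lower than input, where 8.88% of 12143 genes with an IP mean of at least 1 CPM were, and 24 of 25 lower than unbound, where 8.05% of 12155 were. The medians were then -4.11 and -3.90. The median log2 ratio over the listed genes tested was -4.09 to input and -3.92 to unbound, beside 0.11 and 0.18 over all genes tested. Scaling by library size alone moved those all-gene medians to -0.10 and -0.015. At a limit of 4-fold, 27 of 30 were lower than input (7.20% of genes) and 26 of 28 lower than unbound (5.65% of genes).

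**Figure D2:**
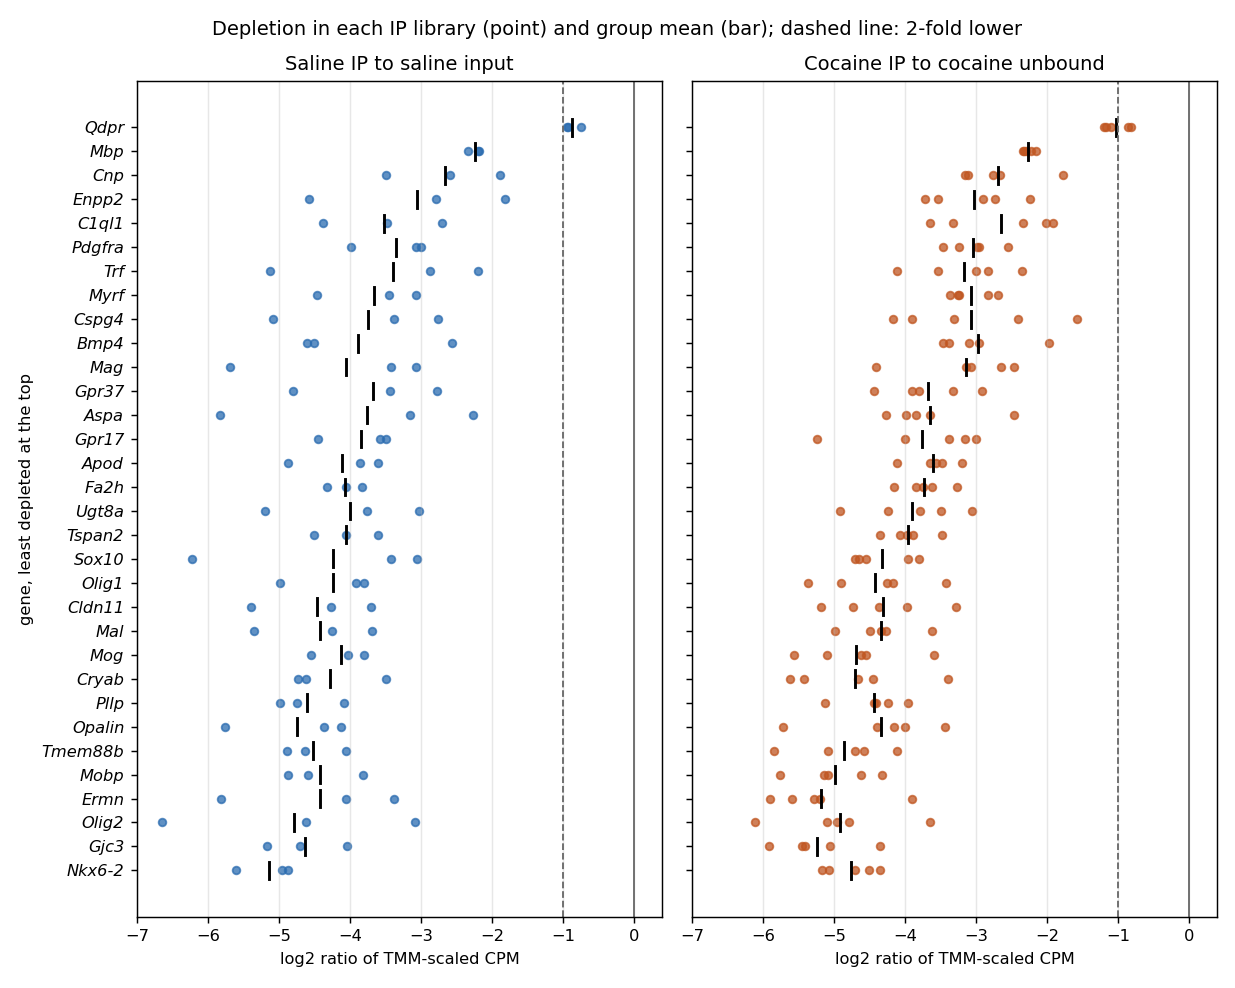
Log2 ratio of TMM-scaled CPM in each saline IP library to the input (left) and each cocaine IP library to the unbound library (right); bars are group means and the dashed line marks 2-fold lower. Qdpr straddles the dashed line and Mbp forms a tight group near -2.24 and -2.27.

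With the 3-read floor, the least depleted of the 32 was Qdpr, which encodes dihydropteridine reductase, the enzyme that regenerates the tetrahydrobiopterin cofactor. Qdpr stood at 94.7, 82.6 and 83.2 CPM in saline IP 1, 2 and 4. It stood at 97.7, 80.3, 76.5, 75.5 and 95.3 CPM in cocaine IP 1 to 5. Its level was 159 CPM in the input and 173 CPM in the unbound library. The IP libraries overlapped between treatments and all lay below both reference libraries. The log2 ratio was -0.87 ± 0.11 (SD, n = 3) to input and -1.03 ± 0.18 (SD, n = 5) to unbound, so that IP libraries kept 43.7% to 59.7% of the reference level. It lay above each of the other 31 genes in 8 of 8 IP libraries. Which cells its reads in IP came from was not tested. Qdpr is found at chr5:45434021-45450236 on the minus strand of GRCm38, and its exons overlap an antisense model, Gm42413. The sources used here do not state the strand setting of the counting, so reads of the pair cannot be told apart.

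Mbp followed, which encodes myelin basic protein, the cytoplasmic protein that holds the membrane layers of compact myelin together. Mbp stood at 125, 114 and 125 CPM in saline IP 1, 2 and 4. It stood at 123, 112, 110.0, 117 and 109 CPM in cocaine IP 1 to 5. Its level was 572 CPM in the input and 549.8 CPM in the unbound library. The 8 IP libraries lay close together, all far below both references. The log2 ratio was -2.24 ± 0.079 (SD, n = 3) to input and -2.27 ± 0.074 (SD, n = 5) to unbound, which left 19.8% to 22.4% of the reference level. Mbp lay above 25 of the 30 genes ranked under it in all 8 IP libraries. The 5 exceptions were Cnp and Enpp2, and the scarce Cspg4, Bmp4 and C1ql1. The Mbp gene also gives rise to golli transcripts from an upstream start, which are known in neurons and immune cells, and counts per gene do not separate them. Their part in the result was not tested.

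After Mbp came Cnp, an enzyme of non-compacted myelin that cleaves cyclic nucleotides. Cnp stood at 80.6, 26.5 and 49.3 CPM in saline IP 1, 2 and 4. It stood at 75.8, 30.1, 29.00, 40.9 and 38.3 CPM in cocaine IP 1 to 5. Its level was 298 CPM in the input and 259 CPM in the unbound library. Saline IP 1 and cocaine IP 1 were the high libraries. In those libraries Cnp lay above Mbp in its ratio, and in the other 6 it lay below. The log2 ratio was -2.66 ± 0.80 (SD, n = 3) to input and -2.69 ± 0.56 (SD, n = 5) to unbound. Cnp (at chr11:100574904-100591729 on the plus strand) shares exon bases with Dnajc7 on the other strand.

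Next came Enpp2, or autotaxin, which makes lysophosphatidic acid and is also abundant in choroid plexus. Enpp2 stood at 28.3, 4.15 and 14.4 CPM in saline IP 1, 2 and 4. It stood at 16.96, 6.07, 6.94, 12.03 and 10.7 CPM in cocaine IP 1 to 5. Its level was 99.3 CPM in the input and 80.3 CPM in the unbound library. Saline IP 1 was high and saline IP 2 low, and the log2 ratio of -3.06 ± 1.40 (SD, n = 3) to input was accordingly wide. To unbound the log2 ratio was -3.03 ± 0.60 (SD, n = 5). Ttr, the defining transcript of choroid plexus, stood at 4.34 CPM in saline IP 1 and at 0.0377 to 0.726 CPM in the other 7 IP libraries, beside 5.32 CPM in the input. The 7 ependymal and choroid plexus markers summed to 23.7 to 32.3 CPM in saline IP, 22.9 to 29.4 CPM in cocaine IP and 30.8 CPM in the input. Clic6 made up most of the sum in IP, at 19.5 to 24.4 CPM against 12.7 CPM in the input. The other 6 markers summed to 4.24 to 9.98 CPM in saline IP, 2.90 to 5.04 CPM in cocaine IP and 18.04 CPM in the input. Folr1 and Tmem212 were at 0 in some IP libraries. Of the 5 markers tested, 2 were lower than input and 3 lower than unbound. Ccdc153 passed the filter against input only through the input. The 3 lower than unbound, Ttr, Foxj1 and Ccdc153, passed there only through the unbound library. The part of these cells in the Enpp2 result was not tested.

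The order of the genes after these was less certain. C1ql1, a secreted C1q-like protein of precursors, ranked 5 by its mean log2 ratios of -3.52 and -2.65, but rested on 1 to 12 reads per IP library. Pdgfra followed at -3.35 and -3.04, Trf at -3.40 and -3.17, and Myrf at -3.66 and -3.07. Cnp lay above 23 of the 29 genes under it in all 8 libraries, Enpp2 above 17 of 28 and C1ql1 above 1 of 27. Among the genes ranked after Qdpr, none lay above its next neighbour in all 8 libraries.

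The order rested on how low values were treated. With 1 CPM added to both sides in place of the 3-read floor, Qdpr ranked 1 to input and 3 to unbound, Mbp 5 and 6, and Cnp 7 and 8. With 5 CPM added, Qdpr ranked 4 to input and 5 to unbound, and Mbp 11 and 12. The scarce C1ql1, Bmp4 and Cspg4 then led to input, and Bmp4, C1ql1, Cspg4 and Nkx6-2 led to unbound. Adding a constant brings the ratio of any gene near or below it towards 0.

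Compact myelin and myelin membrane genes were 11 of the list. All 11 were tested and lower in both comparisons, with medians of -4.42 to input and -4.34 to unbound. Mog, a surface glycoprotein of the outermost myelin layer, stood at 3.26, 2.79 and 1.95 CPM in saline IP 1, 2 and 4, and at 3.56, 0.905, 1.26, 1.74 and 1.83 CPM in cocaine IP 1 to 5. Its level was 45.6 CPM in the input and 42.9 CPM in the unbound library. Cocaine IP 1 was the highest library, and saline and cocaine IP overlapped. The log2 ratio was -4.13 ± 0.38 (SD, n = 3) and -4.69 ± 0.73 (SD, n = 5).

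Mag, an adhesion molecule of the innermost myelin layer facing the axon, stood at 6.81, 1.11 and 5.35 CPM in saline IP 1, 2 and 4. It stood at 5.49, 1.43, 3.44, 4.84 and 3.61 CPM in cocaine IP 1 to 5. Its level was 57.2 CPM in the input and 30.3 CPM in the unbound library. Both libraries numbered 2 were lowest. The log2 ratio was -4.06 ± 1.42 (SD, n = 3) to input and -3.15 ± 0.76 (SD, n = 5) to unbound, and the references themselves differed, with unbound below input by a log2 difference of -0.91 (95% interval -1.05 to -0.78, counting error of these libraries only).

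Mobp, a small basic myelin protein, stood at 26.6, 12.8 and 15.6 CPM in saline IP 1, 2 and 4. It stood at 25.04, 9.28, 14.8, 14.2 and 20.3 CPM in cocaine IP 1 to 5, with 375 CPM in the input and 501 CPM in the unbound library. By the mean over both comparisons it was among the 6 most depleted, with log2 ratios of -4.42 ± 0.54 (SD, n = 3) to input and -4.98 ± 0.55 (SD, n = 5) to unbound. Against input alone it ranked 24 of the 32, with Mal, Cldn11, Tmem88b, Pllp, Gjc3, Opalin, Olig2 and Nkx6-2 lower. Ermn, an actin-binding protein of the myelinating cell, stood at 27.9, 5.15 and 17.6 CPM in saline IP 1, 2 and 4. It stood at 28.4, 7.17, 8.82, 11.6 and 10.9 CPM in cocaine IP 1 to 5, with 291 CPM in the input and 427 CPM in the unbound library. For Ermn the libraries numbered 1 were the highest of their groups, and the log2 ratios were -4.42 ± 1.26 (SD, n = 3) and -5.18 ± 0.76 (SD, n = 5). The tight junction protein Cldn11 (-4.46 and -4.31), the proteolipid Mal (-4.43 and -4.34), the membrane proteins Opalin (-4.75 and -4.34) and Pllp (-4.61 and -4.44) and the tetraspanin Tspan2 (-4.06 and -3.95) lay in the same range of mean log2 ratios to input and to unbound. Of the 32 genes, 14 share exon bases with another gene model, so that their counts are uncertain. Mobp, Trf and Pdgfra do so on the same strand, Trf with the protein-coding model Gm20425. The others, on the opposite strand, are Qdpr, Cnp, Ermn, Tspan2, Pllp, Enpp2, Cryab, Olig1, Nkx6-2, Gpr17 and Bmp4.

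The sequence around the starts of the listed genes was searched for motifs of the factors that act on myelin genes. The RefSeq table for GRCm38.p6 gave 250 bases before to 50 bases after the start of 22 of the 32 genes. A SOX core, AACAAT or ACAAAG on either strand, was in 8 of the 22 and in 27.18% of 27018 promoters. A MYRF core, CTGGCAC or CTGGTAC on either strand, was in 4 of the 22 (Mag, Cnp, Mog and Opalin) and in 7.066% of all promoters. Neither was in 13 of the 22, those of Qdpr, Gjc3, Ermn and Nkx6-2 among them, so that promoters with neither belonged to both the least and the most depleted genes. The 3 promoters that held both are shown as examples, with 1 that held neither, that of Qdpr. They lie at chr7:30914814-30915113 (minus strand), chr11:100574689-100574988 (plus), chr19:41077064-41077363 (minus) and chr5:45450180-45450479 (minus) of GRCm38.p6. Each is written 5′ to 3′ along its gene, and capitals mark the motif matches.
Mag: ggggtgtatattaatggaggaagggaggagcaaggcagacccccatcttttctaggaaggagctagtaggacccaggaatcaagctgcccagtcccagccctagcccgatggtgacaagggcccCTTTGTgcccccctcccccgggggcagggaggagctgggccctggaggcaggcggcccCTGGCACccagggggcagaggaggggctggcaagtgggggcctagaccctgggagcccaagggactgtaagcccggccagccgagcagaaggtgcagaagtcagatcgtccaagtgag
Cnp: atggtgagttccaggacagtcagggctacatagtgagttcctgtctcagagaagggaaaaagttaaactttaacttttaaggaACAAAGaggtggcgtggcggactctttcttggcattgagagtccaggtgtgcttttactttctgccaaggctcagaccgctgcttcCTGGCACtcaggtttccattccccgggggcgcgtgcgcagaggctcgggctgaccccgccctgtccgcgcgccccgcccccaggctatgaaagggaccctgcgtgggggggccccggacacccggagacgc
Opalin: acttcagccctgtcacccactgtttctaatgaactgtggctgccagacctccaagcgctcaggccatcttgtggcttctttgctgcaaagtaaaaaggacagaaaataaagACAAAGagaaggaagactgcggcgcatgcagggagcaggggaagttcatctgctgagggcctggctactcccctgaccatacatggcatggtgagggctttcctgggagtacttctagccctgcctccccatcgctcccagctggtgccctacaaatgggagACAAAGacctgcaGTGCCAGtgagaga
Qdpr: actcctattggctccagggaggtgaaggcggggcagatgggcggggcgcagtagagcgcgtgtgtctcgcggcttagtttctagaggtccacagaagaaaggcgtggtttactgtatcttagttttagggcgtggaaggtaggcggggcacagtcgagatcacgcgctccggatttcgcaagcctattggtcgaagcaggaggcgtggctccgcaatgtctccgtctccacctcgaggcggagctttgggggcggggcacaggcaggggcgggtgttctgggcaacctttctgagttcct
Offsets are of the first letter along the gene, with the start base as 0. In Mag the SOX core was read on the opposite strand at -126 and the MYRF core at -68 from the start. In Cnp they stood at -167 and -81. Opalin had SOX cores at -139 and 23 and a MYRF core on the opposite strand at 36. A match is a description of letters in the window and no measurement of binding.

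The 5 lipid and metabolic enzymes had medians of -3.75 and -3.64, and 4 of 5 were lower in each comparison, Qdpr being the exception. Ugt8a, which makes galactosylceramide, had mean log2 ratios of -3.99 to input and -3.90 to unbound. Fa2h, which hydroxylates its fatty acids, had -4.07 and -3.73. Aspa, which splits N-acetylaspartate, had -3.75 and -3.64. Aspa varied 11.8-fold between its highest and lowest IP library.

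The 3 junction, receptor and small membrane proteins were all lower, with medians of -4.52 and -4.86. Gjc3, a connexin of oligodendrocytes, stood at 12.2, 5.55 and 7.71 CPM in saline IP 1, 2 and 4. It stood at 14.2, 4.75, 6.57, 6.78 and 8.65 CPM in cocaine IP 1 to 5, with 200.2 CPM in the input and 288 CPM in the unbound library. IP libraries kept 1.65% to 6.09% of the reference level, and the log2 ratios were -4.64 ± 0.57 (SD, n = 3) and -5.24 ± 0.59 (SD, n = 5). Tmem88b stood at 14.9, 8.34 and 9.97 CPM in saline IP 1, 2 and 4. It stood at 16.9, 5.09, 11.2, 12.2 and 8.56 CPM in cocaine IP 1 to 5, with 247 CPM in the input and 291 CPM in the unbound library. By the same mean, both genes were among the 6 most depleted. The log2 ratio of Tmem88b was -4.52 ± 0.43 (SD, n = 3) to input and -4.86 ± 0.65 (SD, n = 5) to unbound. Gpr37, an orphan receptor, had mean log2 ratios of -3.67 and -3.68.

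The 3 carriers and chaperones were also all lower, with medians of -4.11 and -3.60. Trf, the iron carrier transferrin, stood at 28.7, 3.79 and 17.99 CPM in saline IP 1, 2 and 4. It stood at 19.5, 5.77, 8.65, 14.00 and 12.5 CPM in cocaine IP 1 to 5, with 132 CPM in the input and 99.99 CPM in the unbound library. Trf had the widest spread of the 16 listed genes at or above 5 CPM in IP, 7.57-fold from saline IP 1 to saline IP 2. The lipocalin Apod stood at 14.4, 5.94 and 11.95 CPM in saline IP 1, 2 and 4. It stood at 10.6, 5.66, 8.26, 8.76 and 7.76 CPM in cocaine IP 1 to 5, with 174 CPM in the input and 97.6 CPM in the unbound library. Its log2 ratios were -4.11 ± 0.67 (SD, n = 3) and -3.60 ± 0.33 (SD, n = 5). Cryab, a small heat shock protein, had mean log2 ratios of -4.28 and -4.71.

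The 5 transcription factors were all lower than input, Nkx6-2 passing the filter only through the input. The 4 tested against unbound were lower there, Sox10 and Olig2 passing only through the unbound library. Olig2, which sets up the lineage, stood at 2.54, 0.215 and 0.878 CPM in saline IP 1, 2 and 4. It stood at 1.96, 0.717, 0.793, 0.888 and 0.357 CPM in cocaine IP 1 to 5, with 21.5 CPM in the input and 24.6 CPM in the unbound library. Olig2 ranked among the 6 most depleted by that mean, with log2 ratios of -4.78 ± 1.79 (SD, n = 3) and -4.92 ± 0.88 (SD, n = 5). Its neighbour Olig1 stood at 5.51, 2.43 and 5.08 CPM in saline IP 1, 2 and 4. It stood at 7.24, 1.89, 2.61, 4.08 and 4.32 CPM in cocaine IP 1 to 5, with 76.9 CPM in the input and 77.6 CPM in the unbound library. Olig1 had log2 ratios of -4.23 ± 0.65 (SD, n = 3) and -4.42 ± 0.74 (SD, n = 5).

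Sox10, which acts throughout the lineage, stood at 1.93, 0.215 and 1.49 CPM in saline IP 1, 2 and 4. It stood at 1.12, 0.603, 0.628, 1.01 and 0.669 CPM in cocaine IP 1 to 5, with 16.01 CPM in the input and 15.7 CPM in the unbound library. Saline IP 2 was the lowest of all 8, and the log2 ratios were -4.23 ± 1.73 (SD, n = 3) and -4.33 ± 0.42 (SD, n = 5). Myrf, the factor that switches on myelin genes, stood at 3.87, 1.47 and 2.98 CPM in saline IP 1, 2 and 4. It stood at 2.56, 2.38, 2.58, 3.79 and 3.43 CPM in cocaine IP 1 to 5, with 32.5 CPM in the input and 24.4 CPM in the unbound library. Myrf had the highest ratios of the 5 factors, -3.66 ± 0.72 (SD, n = 3) and -3.07 ± 0.30 (SD, n = 5). Nkx6-2, a homeobox factor of the lineage, stood at 0.190, 0.179 and 0.0764 CPM in saline IP 1, 2 and 4, and at 0.156, 0.0754, 0.198, 0.0404 and 0.178 CPM in cocaine IP 1 to 5, with 5.56 CPM in the input and 4.06 CPM in the unbound library. It held 1 to 6 reads in each IP library. In 3 of the 8 its reads were under the floor, so that its log2 ratios of -5.14 and -4.76, the lowest mean of the 32, carry values set to 3 reads.

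The 5 precursor genes were scarce. Against input, Pdgfra, Cspg4 and Gpr17 passed the filter and were lower, but Cspg4 and Gpr17 passed only through the input. Against unbound, Pdgfra and Gpr17 passed and were lower, Gpr17 only through the unbound library. Pdgfra stood at 2.12, 1.07 and 2.02 CPM in saline IP 1, 2 and 4. It stood at 2.18, 1.36, 1.16, 1.61 and 1.65 CPM in cocaine IP 1 to 5, with 16.98 CPM in the input and 12.8 CPM in the unbound library. All 8 IP libraries lay below both references, with log2 ratios of -3.35 ± 0.55 (SD, n = 3) and -3.04 ± 0.34 (SD, n = 5). Cspg4, also a marker of pericytes, stood at 0.349, 0.0358 and 0.535 CPM in saline IP 1, 2 and 4. It stood at 0.156, 0.189, 0.529, 0.283 and 0.936 CPM in cocaine IP 1 to 5, with 3.63 CPM in the input and 2.81 CPM in the unbound library. It spread widely around low values, with log2 ratios of -3.74 ± 1.20 (SD, n = 3) and -3.07 ± 1.07 (SD, n = 5) from 1 to 21 reads. C1ql1 stood at 0.0634, 0.179 and 0.306 CPM in saline IP 1, 2 and 4, and at 0.374, 0.151, 0.297, 0.0404 and 0.401 CPM in cocaine IP 1 to 5, with 1.98 CPM in the input and 1.51 CPM in the unbound library. Gpr17, a receptor of cells about to differentiate, had mean log2 ratios of -3.84 and -3.76. Bmp4, a signalling ligand of newly committed cells, held 0 to 14 reads in an IP library. The 9 mural and fibroblast markers, of cells that share Pdgfra or Cspg4, summed to 1.57 to 2.98 CPM in saline IP, 1.92 to 4.23 CPM in cocaine IP and 25.3 CPM in the input. Kcnj8, Dcn, Lum and Col1a1 were at 0 in some IP libraries. Of the mural markers tested, 3 of 3 were lower than input and 1 of 2 lower than unbound. All of them, Rgs5, Abcc9 and Vtn against input and Rgs5 and Vtn against unbound, passed the filter only through the reference. Their part in the precursor values was not tested.

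Levels of different genes are set against each other per kilobase of exon. In the input the highest were Cldn11 at 155 CPM per kilobase, Mal at 145 and Cryab at 106, ahead of Qdpr at 88.7 and Cnp at 81.8. In the mean of the IP libraries Qdpr led at 47.9 CPM per kilobase, followed by Mbp at 13.8, Cnp at 12.7 and Cldn11 at 8.56. The exon length of Mbp covers all its annotated transcripts, 8469 bases.

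Lists of other genes and cell types were read in the same way. Several of their genes had IP means under 1 CPM and passed the filter only through the reference. Gal3st1, Gjb1 and Nkx2-2 passed against input in this way, and such genes could hardly be other than lower. Of 31 other oligodendrocyte genes, 26 of 30 tested were lower than input (median -3.79) and 24 of 28 lower than unbound (median -3.77). The lowest to input were Gal3st1 at -5.02, an enzyme of sulfatide synthesis, and Gjb1 at -4.61, a connexin. The 4 not lower in either comparison were named after their values were seen. Gamt, the enzyme that makes creatine, had log2 ratios of -0.090 to input and 0.40 to unbound, and Carns1 had -0.39 and -0.42. The deacetylase Sirt2 had -0.66 and -0.64, and Lgi3 had -0.71 and -0.050. Of 9 other precursor genes, 6 of 8 tested were lower in each comparison (medians -4.09 and -3.67). Nkx2-2 was the lowest of those tested at -4.86 and -5.20, while Sox8 at -0.22 and -0.014 and Lhfpl3 at -0.86 and -0.43 were not lower.

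The 15 sterol synthesis genes tested, of a pathway that myelinating cells use heavily, had medians near the reference, -0.28 to input and 0.21 to unbound. Markers of other glia were low. Astrocyte markers were lower in 10 of 10 in both comparisons (medians -4.19 and -3.92). Gfap, Aldh1l1 and Gjb6 passed the filter only through the reference in both comparisons, and Fgfr3 did so against unbound. Microglial markers were lower in 8 of 8 against input (median -3.62) and 4 of 5 against unbound (median -2.82). Tmem119, C1qb and C1qc passed only through the input, and Cx3cr1 and Aif1 passed against unbound only through the unbound library. None of 6 endothelial markers passed the filter, and they summed to 0.42 to 1.6 CPM in IP. The D1 markers were lower in 6 of 6 against input and 5 of 6 against unbound. Of 5 markers shared by both kinds of medium spiny neuron, 2 were higher in each comparison (medians 0.995 and 1.15).

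The single input and unbound libraries are different fractions from differently treated mice. Between them, unbound was lowest against input for Bmp4 (log2 difference -1.33), Mag (-0.91) and Apod (-0.83). It was highest for Ermn (0.55), Gjc3 (0.52) and Mobp (0.42), and near equal for Mbp (-0.056). With 1 library each, these differences have no replicate check.

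The 8 IP libraries differed among themselves in these genes. Over the 16 whose mean reached 5 CPM in IP, the highest library stood a median of 3.25-fold above the lowest, and 13 of 16 spanned at least 2-fold, where 16.1% of 9679 genes did. The median over all genes was 1.5-fold. Mbp was the narrowest of the 16 at 1.15-fold (coefficient of variation 5.79%, of which counting error alone gives 1.77%), a range as narrow as that of 1.31% of genes. Qdpr spanned 1.29-fold, as narrow as 16.7% of genes. A range as wide as that of Trf was met by 0.0723% of genes.

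Libraries numbered 1 and 2 stood apart. All 16 were higher in the library numbered 1 than in that numbered 2 in both treatments, where 32.2% of genes were. In 11 of the 16 the gap was at least 2-fold in both treatments, where 0.672% of genes had one. Of the 32, 28 had at least 3 reads in these 4 libraries, and all 28 were higher in number 1 in both treatments. The other 4, all scarce, were Cspg4, Bmp4, C1ql1 and Nkx6-2. Saline IP 1 and 2 shared lane 7 and cocaine IP 1 and 2 shared lane 6, so the gap was present within each lane.

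The other lists differed in how they moved across the libraries. Medians were taken over genes with an IP mean of at least 1 CPM. These were 26 of the 32 listed genes, 7 of 10 astrocyte markers and 4 of 10 microglial markers. The median of the listed genes, as log2 difference from the IP mean, was 0.70 in saline IP 1 and 0.70 in cocaine IP 1, against -0.66 and -0.79 in the libraries numbered 2. Astrocyte markers stood at 0.84 and 0.33 against -0.73 and -0.42. Microglial markers stood at 0.67 and 0.37 against -0.91 and -0.65. D2 neuron markers stood at -0.28 and -0.28 against 0.29 and 0.34. The 10 astrocyte markers summed to 59.5 to 212 CPM in saline IP and 104 to 189.6 CPM in cocaine IP, against 2104 CPM in the input, with none at 0. The 10 microglial markers summed to 5.01 to 10.05 CPM and 4.11 to 7.62 CPM, against 73.7 CPM, with Tmem119, C1qa and Trem2 at 0 in some IP libraries. The 6 D2 neuron markers summed to 7939 to 12569 CPM and 6888 to 12955 CPM. D1 neuron markers stood at 0.14 and 0.039 against -0.39 and -0.37. Other precursor genes (6 of 9) stood at -0.11 and 0.089 against -0.021 and -0.20. Ependymal and choroid plexus markers (3 of 7) stood at 0.30 and 0.15 against 0.29 and 0.057. Ttr was too low in IP to enter that median. It stood at 4.34 and 0.717 CPM in the libraries numbered 1, against 0.286 and 0.0377 CPM in those numbered 2. The part of these cells in the spread of the listed genes was not tested.

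**Figure D3:**
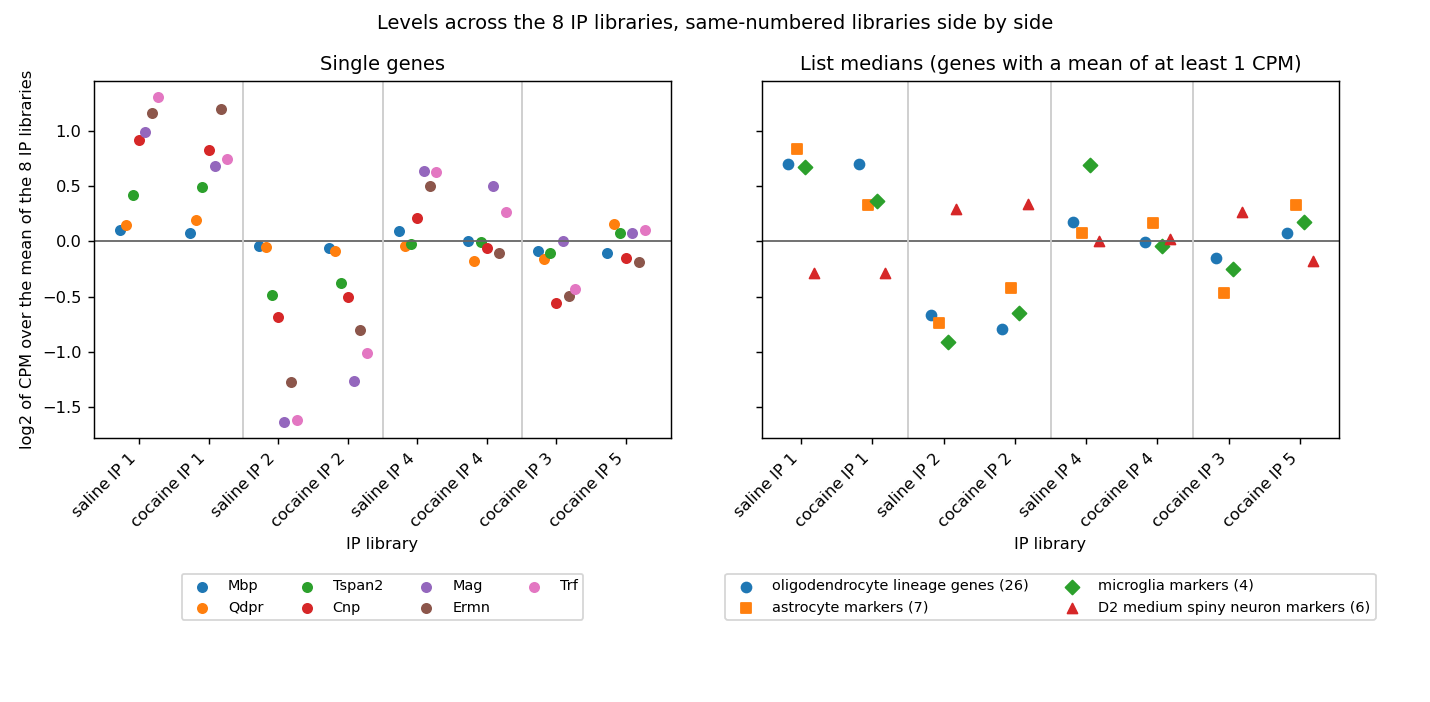
Log2 of CPM over the mean of the 8 IP libraries, for 7 single genes (left) and for the medians of 4 gene lists (right), with same-numbered saline and cocaine libraries side by side. Mag, Ermn and Trf are high in both libraries numbered 1 and low in both numbered 2, and Mbp and Qdpr stay near 0. In the libraries numbered 1 and 2 the D2 neuron markers lie on the opposite side from the glial lists. In saline IP 4 all 4 medians lie above 0.

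The comparison of treatments used the 8 IP libraries and edgeR's quasi-likelihood test with Benjamini-Hochberg adjustment. This fit did not pair the libraries by number. Of the 32 genes, 29 were tested (Nkx6-2, Bmp4 and C1ql1 were too scarce) and 0 passed an adjusted p of 0.05. Over all 13800 genes tested, 0 passed (0%), 295 had an unadjusted p under 0.05 (2.14%), and DESeq2 also called 0, with 443 genes under 0.05 unadjusted. None of the 29 had an unadjusted p under 0.05, and in none did the saline and cocaine libraries fail to overlap, where 2.31% of genes did. The estimates were negative in 23 and positive in 6, with a median of -0.12 beside 0.006 over all genes. They ran from -0.58 for Sox10 to 0.43 for Cspg4, and the median standard error was 0.41. For 13 of the 29, the 95% interval lay within 2-fold in either direction.

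The 5 genes with the smallest p in this unpaired edgeR fit were all lower in the mean of the cocaine libraries. By edgeR, Apod had a log2 fold change of -0.38 (SE 0.27, adjusted p = 0.9998), with all its values given above. Mog had -0.50 (SE 0.40, adjusted p = 0.9998) and Enpp2 -0.56 (SE 0.48, adjusted p = 0.9998). Sox10 had -0.58 (SE 0.54, adjusted p = 0.9998) and Trf -0.47 (SE 0.51, adjusted p = 0.9998). The saline and cocaine values of each of the 5 overlapped. Mbp had the most precise estimate, -0.075 (SE 0.10, adjusted p = 0.9998). Qdpr had -0.019 (SE 0.13, adjusted p = 0.9998).

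In fits that did not pair the libraries, the direction over the list hung on single libraries. Without saline IP 1, 4 estimates were negative and 26 positive of 30 tested, with a median of 0.19. Without saline IP 2, 29 were negative and 1 positive (median -0.42). In that edgeR fit Enpp2, Trf, Apod and Sox10 had an unadjusted p under 0.05, where 458 of 14053 genes did (3.26%). Without cocaine IP 1, 27 were negative and 2 positive (median -0.41). There Mog, Cnp and Cryab were under 0.05, where 598 of 13583 genes were (4.40%). Without cocaine IP 2, 16 were negative and 13 positive (median -0.062). Without both libraries numbered 1, a choice made after seeing the data, 17 were negative and 12 positive (median -0.045). With lane as a covariate the split was 16 to 13 (median -0.059), and without the 3 cocaine libraries of lane 4 it was 16 to 13 (median -0.033). None of these fits called a gene.

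Pairing the libraries by number gave narrower intervals. With the replicate block over numbers 1, 2 and 4 (6 libraries, 28 of the genes tested), the median standard error was 0.178, and 23 intervals lay within 2-fold. Of the 28 estimates, 21 were negative and 7 positive (median -0.053). In that fit 903 of 13580 genes (6.65%) had an unadjusted p under 0.05, against 141 in the same 6 libraries with no block. The smallest adjusted p over all genes was 0.0599 by edgeR, and 0 genes were called. By edgeR, Gpr37, at -0.47 (SE 0.21, adjusted p = 0.747), and Apod, at -0.32 (SE 0.15, adjusted p = 0.748), were the 2 listed genes with an unadjusted p under 0.05. By pair, cocaine lay below saline for 16, 13 and 24 of 29 genes in numbers 1, 2 and 4. Cocaine was lower in all 3 pairs for 4 genes and higher in all 3 for 1. Pair counts were not made over all genes, so these have no background to be read against and say nothing particular about the list.

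**Figure D4:**
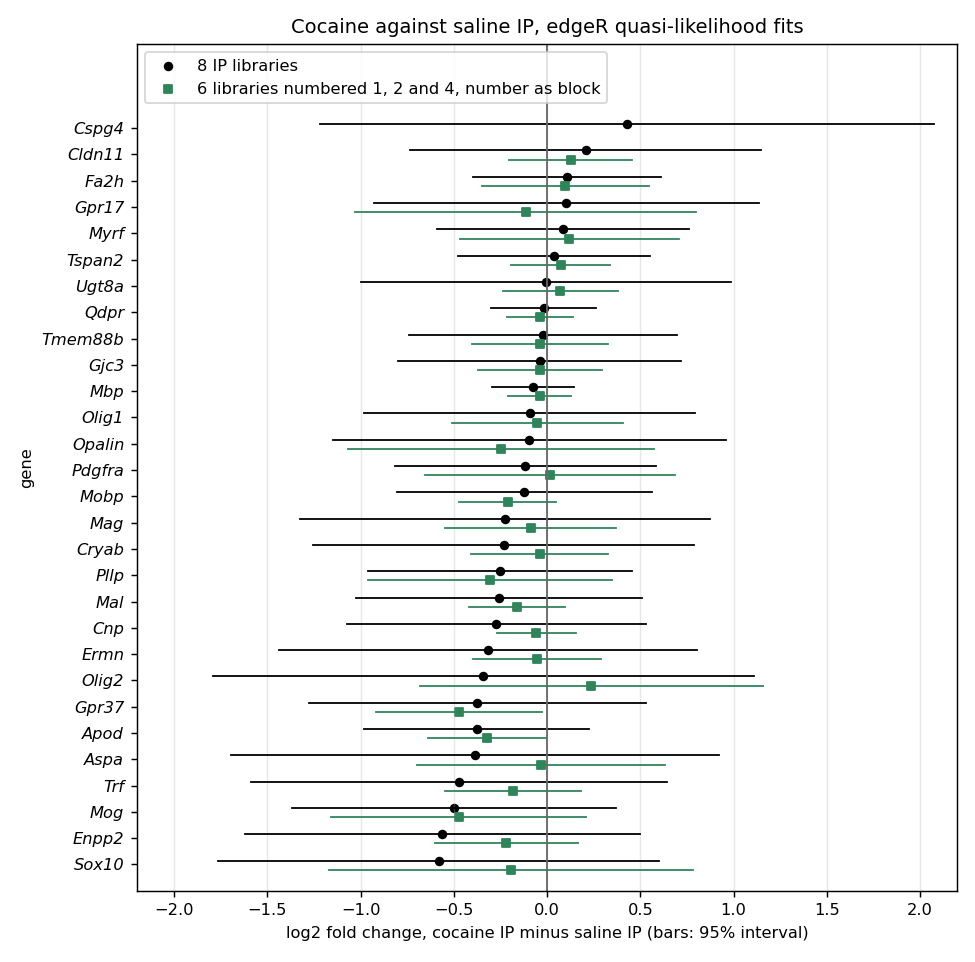
Log2 fold change of cocaine against saline IP for the genes tested (rows), with 95% intervals, in the fit of 8 IP libraries (circles) and in the fit of 6 libraries with number as a block (squares). Every interval of the 8-library fit crosses 0, and those of Mbp and Qdpr are the narrowest.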

How the data were processed

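Whole-striatum libraries of Drd2-TRAP mice were analysed from the deposited raw read counts per gene symbol, 1 table a library. Per the submitters' processing notes, the authors used STAR 2.0.0e with HTSeq and build mm10. HTSeq's version, the annotation and the strand setting were not given in the sources used here. Rows that name no gene stayed out of library sizes. Reads in no feature and the ribosomal RNA gene Rn45s (1.50% of gene reads in cocaine IP 5, 4.67% to 7.30% in the other IP libraries) were not otherwise corrected, and Rn45s was left out as an alternative.

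CPM were scaled with TMM over all 10 libraries. IP to input and IP to unbound are log2 ratios with a floor of 3 reads (0.0936 to 0.134 CPM in IP), without a test, since each reference is 1 library. Cocaine against saline was tested two-sided with edgeR 4.0.16 in R 4.3.3 (quasi-likelihood, TMM, filterByExpr, Benjamini-Hochberg over all genes); its common biological coefficient of variation was 0.199. DESeq2 1.42.0 was an alternative. Counting intervals are 95% Poisson intervals and cover counting error only. A chi-square test of counts over all 45 pairs of libraries found none that agreed within sampling noise (lowest 12.6 per degree of freedom).

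Titles gave the groups and numbers, and descriptions the lanes. Same-numbered libraries deviated together over 9618 genes (correlations 0.706, 0.620 and 0.314 for numbers 1, 2 and 4), all over the preset 0.1. Over all 13800 tested genes the correlations were 0.518, 0.363 and 0.115. Over the 9618 genes, each saline library correlated best with the cocaine library of its own number. Libraries of the same treatment were not compared in this way. Same-numbered libraries were treated as pairs only in the fit of 6 libraries with number as a block. The main fit of 8 libraries left this pairing out. What such a number stands for is not stated.

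The 32 genes, the other lists and the tests were chosen with earlier results of these data known. The calls of 1 gene list are not reported here. All 32 are named; values in every library are given for the 6 least and 6 most depleted, for 9 core lineage genes and for the 5 smallest p. Positions and exon lengths are from GENCODE M21 and promoters from RefSeq (GRCm38.p6). The fits were tested on simulated data.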

Additional observations from a re-analysis of the deposited data

Results flagged for a closer look

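In the 5 cocaine IP libraries, cocaine IP 1 stood far above the nearest other library for 3 of the 32 genes. The gap to the next library, divided by the range of the group, was 0.745 for Cnp, 0.792 for Ermn and 0.783 for Aspa, above Dixon's 95% critical value of 0.71 for 5 samples. Chance flags about 1 in 20 independent groups, but the listed genes rose and fell together across libraries. The share flagged over all genes was not counted, so the 3 have no background to be read against. The group of 3 saline IP libraries was too small for this rule.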

How the results depend on the processing

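The count of listed genes lower than the reference and their median kept direction under every alternative run, and no result changed sign among those called. Medians were -2.75 (input) and -2.67 (unbound) with 5 CPM added. Counts over all genes moved more. Genes higher than input numbered 266, but 118 by library size alone, 131 without Rn45s, 107 with 5 CPM added, 911 against the unbound library and 18 at 4-fold. Genes lower than input numbered 1742, but 798 with 5 CPM added, 716 at a mean of 5 CPM, 4440 with no filter and 928 at 4-fold. Genes higher than unbound numbered 627, but 339, 390, 293 and 24 under the same first 3 settings and the 4-fold limit, and 201 against the input. Genes lower than unbound numbered 1409, but 769, 600, 3737 and 715 under those of the lower calls. Leaving out 1 saline library at a time gave 312 to 461 genes higher than input, the most without saline IP 1. The cause was not tested, other than that a wider filter tests more genes and a higher limit calls fewer. TMM from the compared libraries only was chosen after seeing the data. With the numbers as pairs, the replicate block left 0 genes called and changed no other call. The remaining values were ratios and cocaine estimates of single genes, ranks of Qdpr, Mbp and Cnp, and all-gene medians. Of these, 88 were marked as moved, most with 5 CPM (40) or 1 CPM (24) added, and 1425 were not. A ratio was marked when it moved by more than the spread of its replicates. Cocaine estimates were marked only past an adjusted p of 0.05. Their sign changes, 19 without saline IP 1 and 15 with lane as covariate, were therefore not marked. The all-gene medians and the rank of Qdpr were never marked. Depth limits Bmp4, C1ql1, Nkx6-2 and Cspg4, at 0 to 21 reads in an IP library.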
